A study of Mus musculus with 8 samples.

Results

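The distribution of H3K27me3 over the autosomal genes of mouse primordial germ cells (PGCs) at embryonic day E11.5 was described by setting 1 H3K27me3 library against the only IgG library of that stage. A gene was included if it lies on chromosomes 1 to 19 and had 20 or more reads in the pair of libraries together. This left 15050 of 20368 autosomal genes, out of 21352 genes in the files. The level of a gene was its reads on both alleles in counts per 1000000 reads of chromosomes 1 to 19 (CPM), and the ratio was taken as log2 of the H3K27me3 level plus 1 over the IgG level plus 1. The added 1 understates the ratio of sparsely covered genes.

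PGCs are the embryonic precursors of eggs and sperm. They were sorted by flow cytometry from pooled embryos of 1 sex and profiled by low-input CUT&RUN, in which an antibody tethers micrococcal nuclease to chromatin and the released fragments are sequenced. The labels list 8 samples, of which 5 had a file here, with 1 library in each group, and the other 3, second replicates of H3K27me3, were not analysed here. The H3K27me3 libraries came from E11.5 and E12.5 females of genotype Xist KO/+:Oct4-eGFP+/-. The IgG libraries came from E11.5 males of genotype Xist KO/Y:Oct4-eGFP+/-, and from E12.5 and E13.5 females of genotype Xist KO/+:Oct4-eGFP+/-. The strain of every group is B6 x Cast, so all cells, controls included, were hybrid, carried the Oct4-eGFP reporter and carried a knockout allele of Xist, the RNA that silences an X chromosome. At E11.5 the antibody and the sex of the embryos differ together and cannot be told apart, which is why the comparison was kept to autosomes. With 1 library a side there was no spread between replicates and no p-value. Intervals given here are exact 95% intervals of a ratio of reads, and they cover counting error only, since PCR duplicates may remain among the reads.

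H3K27me3 is the trimethyl mark on lysine 27 of histone H3. It is written by Polycomb repressive complex 2, whose catalytic subunit is Ezh2 or Ezh1 and whose core also holds Eed and Suz12, and it is bound by the Cbx proteins of Polycomb repressive complex 1. In embryonic cells the mark is known for covering the CpG-rich promoters of silent developmental regulators such as the Hox genes, and it is in general low over the bodies of active genes. IgG has no target on chromatin and gives the background of untargeted cleavage.

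The 250 bases upstream of the annotated start are shown for the 3 genes with the highest ratios among genes with 100 or more reads in the pair, and for a pair of genes from the other end of the same ranking. They are RefSeq sequences of GRCm38.p6, written 5′ to 3′ on the strand of the gene, with every CG dinucleotide in capitals, because CpG-rich starts are where the mark is known to be deposited.
Nkx3-2, chr5:41764221-41764470, minus strand: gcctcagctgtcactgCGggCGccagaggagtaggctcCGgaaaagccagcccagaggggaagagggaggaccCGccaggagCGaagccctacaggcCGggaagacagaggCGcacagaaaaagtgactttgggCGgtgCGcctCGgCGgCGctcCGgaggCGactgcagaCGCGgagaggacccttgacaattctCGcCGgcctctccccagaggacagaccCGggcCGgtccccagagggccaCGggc
Foxf2, chr13:31625566-31625815, plus strand: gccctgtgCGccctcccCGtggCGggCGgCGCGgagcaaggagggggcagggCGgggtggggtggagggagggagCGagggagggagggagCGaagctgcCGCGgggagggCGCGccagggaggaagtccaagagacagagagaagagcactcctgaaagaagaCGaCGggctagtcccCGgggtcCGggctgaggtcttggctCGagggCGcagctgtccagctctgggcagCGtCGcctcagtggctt
Emx2, chr19:59458440-59458689, plus strand: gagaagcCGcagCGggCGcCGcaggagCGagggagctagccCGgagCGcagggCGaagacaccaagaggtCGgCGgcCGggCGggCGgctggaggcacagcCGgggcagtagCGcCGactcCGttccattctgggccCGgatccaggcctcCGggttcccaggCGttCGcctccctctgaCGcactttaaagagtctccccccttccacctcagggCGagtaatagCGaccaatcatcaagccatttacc
Cyp20a1, chr1:60343050-60343299, plus strand: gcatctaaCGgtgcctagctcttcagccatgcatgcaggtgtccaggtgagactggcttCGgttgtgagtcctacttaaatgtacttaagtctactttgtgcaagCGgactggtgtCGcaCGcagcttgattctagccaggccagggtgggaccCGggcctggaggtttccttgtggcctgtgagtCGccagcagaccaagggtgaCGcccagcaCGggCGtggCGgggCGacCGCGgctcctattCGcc
Sacm1l, chr9:123529503-123529752, plus strand: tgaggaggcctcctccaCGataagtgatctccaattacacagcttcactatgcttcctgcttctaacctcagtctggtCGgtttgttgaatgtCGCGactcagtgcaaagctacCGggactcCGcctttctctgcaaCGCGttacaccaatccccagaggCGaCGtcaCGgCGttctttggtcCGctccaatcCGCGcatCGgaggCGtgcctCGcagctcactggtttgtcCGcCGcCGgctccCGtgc
The windows of Nkx3-2, Foxf2 and Emx2 held 21, 21 and 24 CG dinucleotides, and those of Cyp20a1 and Sacm1l held 15 and 22. Over all 25748 autosomal windows of the table the median was 6 CG, with an interquartile range of 2 to 16, and 92% held at least 1. A CG reads the same on both strands, and neighbouring ones do not overlap. The windows of 4 of these 5 genes held more CG than that range, Cyp20a1 lay within it, and the number of CG did not separate these 5 genes by their ratio. A summary over all marked genes was void, because the table held a window for only 74.4% of them, against 81.0% of the tested genes on the same chromosomes.

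The H3K27me3 library held 2356356 autosomal reads with a median of 32 per gene, and the IgG library held 1357583 with a median of 23. A single read was worth 0.424 CPM in the first and 0.737 in the second. The E12.5 libraries held 5020062 reads for H3K27me3 and 1515532 for IgG, and the IgG library of E13.5 held 5705401.

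At E11.5, 2591 genes (17.2%) lay at least 2-fold above IgG and are called marked here, 4466 (29.7%) lay at least 2-fold below, and 7993 (53.1%) lay between. Among genes with 100 or more reads the highest 3 were homeobox and forkhead genes, and the 25 lowest were all longer than the median gene. Of the 25 highest, 9 belonged to lists of developmental regulators, which held 273 of the 15050 tested genes. The share of these lists among genes with 100 or more reads was not counted. The ratios ran from -2.67 to 4.52 on the log2 scale, with a median of -0.49 and an interquartile range of -1.10 to 0.50. A ratio of at least 4-fold was reached by 1102 genes and of at least 8-fold by 260, while only 98 genes lay 4-fold or more below. The marked genes took 31.0% of autosomal H3K27me3 reads and 8.53% of IgG reads, and the genes below IgG took 11.9% and 29.9%. The counting interval of the ratio excluded 1 for 2544 of the marked genes and for 4396 of the genes below.

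The count of genes below IgG depended on the scale more than on any other choice. Scaling by TMM, which centres the bulk of genes, raised every ratio and moved the median by 0.43, so that 3593 genes lay above and 1450 below. With DESeq2 size factors the shift was 0.49 and the counts were 3770 and 1143. Marked genes thus made up 36.7% of the genes past 2-fold with total reads, 71.2% with TMM and 76.7% with size factors. All 2591 marked genes were among those above under both scalings, which follows from every ratio being raised. With IgG E12.5 as the control 2017 of them were called above, and with IgG E13.5 2375. A gene said to lie below IgG is one with a smaller share of the reads, which the scaling can change. All ratios given here are those with total reads, relative to a median of -0.49.

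**Figure D1:**
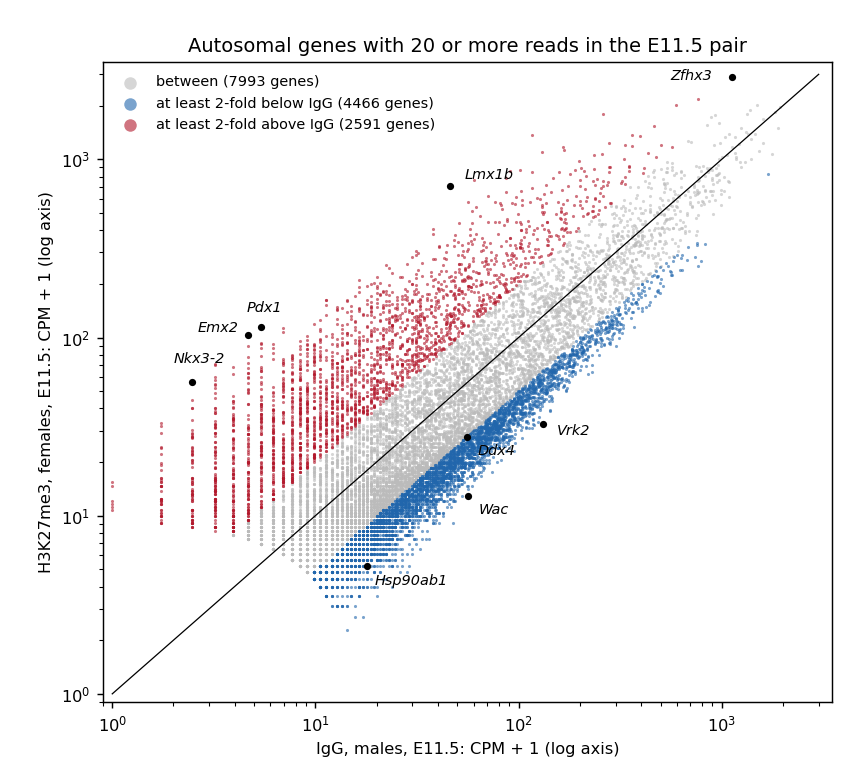
Each point is 1 of 15050 autosomal genes, placed by its level in the E11.5 IgG library (x axis) and in the E11.5 H3K27me3 library (y axis), both in CPM plus 1 on log axes, with red for genes at least 2-fold above IgG, blue for genes at least 2-fold below, grey for the rest and a line at equal levels. The red genes spread far from the line, with Nkx3-2, Emx2, Pdx1 and Lmx1b at the outer edge of their cloud, while the blue genes form a narrow band close under it.

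The minimum of 20 reads acts on both sides. At equal levels 20 reads would divide into 12.7 of H3K27me3 and 7.31 of IgG, and 592 marked genes (22.8%) had 7 or fewer IgG reads and so passed mainly through H3K27me3. Likewise 558 genes below IgG had 12 or fewer H3K27me3 reads. A filter that used neither library, 40 or more reads in the E13.5 IgG library, kept 13834 genes, with 1788 marked (12.9%) and 4502 below (32.5%), and is used beside the gene lists for that reason. Just inside the minimum, the 182 genes with 20 reads had ratios from -1.95 to 2.38 with a median of -0.43. Just outside it, the 180 genes with 19 reads ran from -2.16 to 3.18 with a median of -0.54. At the 2-fold line, BC051142, Gfod1 and Irs2 lay just inside, and Sobp, Ces1f and Olfr111 just outside, all within rounding of a log2 ratio of 1. The 5318 genes under the minimum, of which 1366 had no read in either library, were short, with a median deposited length of 4226 bases. Their reads, added up, gave a ratio of 0.730 (0.715 to 0.746).

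Homeobox and forkhead genes headed the ranking of the 7546 genes with 100 or more reads. Nkx3-2, a homeobox gene of the axial skeleton and gut (chromosome 5, 41761483 to 41764220), had 131 reads in H3K27me3 and 2 in IgG. Its levels were 55.6 and 1.47 CPM at E11.5, 32.3 and 5.94 in the E12.5 pair, and 3.51 in IgG E13.5. Both H3K27me3 libraries were high and all 3 IgG libraries low, and the E11.5 ratio was 4.52 on the log2 scale, or 37.7-fold in reads (10.2 to 315). Foxf2, a forkhead gene of the gut and craniofacial mesenchyme (chromosome 13, 31625816 to 31631406), had 165 and 3 reads. Its levels were 70.0 and 2.21 in the E11.5 pair, 55 and 9.24 in the E12.5 pair and 4.38 in IgG E13.5, a ratio of 4.47 at E11.5.

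Emx2, a homeobox gene needed for the cerebral cortex and for the urogenital tract (chromosome 19, 59458690 to 59465357), had levels of 102 and 3.68 CPM in the E11.5 pair, 75.5 and 8.58 in the E12.5 pair and 4.91 in IgG E13.5. Its ratio was 4.46, or 27.7-fold in reads (11.7 to 85.9). Pdx1, the master regulator of the pancreas (chromosome 5, 147270097 to 147275848), stood at 114 and 4.42, at 96.2 and 7.92, and at 6.13 in the same order. Its ratio was 4.41. For both genes the H3K27me3 levels of both stages lay above all 3 IgG levels. Dlx3, a homeobox gene of skin appendages and bone, followed at 4.27 and Lmx1b, which patterns the dorsal limb, at 3.95 with 1671 and 61 reads.

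The other genes among the 25 highest were of mixed function, and 9 of the 25 belonged to the developmental lists described next. Cd70 and Tnfsf9, tumour necrosis factor family ligands of immune cells, had ratios of 4.44 and 4.18. Fev, a factor of serotonergic neurons, had 4.17, and Prph, the neuronal filament peripherin, 4.08. Duoxa2, the maturation factor of a thyroid oxidase, had 4.23. Izumo1, the sperm protein that binds the egg at fertilisation, had 4.1, and Krt9, a keratin of palm and sole skin, 3.87. Their deposited lengths ran from 1.54 to 79.6 kb with a median of 6.04 kb, against 26650 bases over all tested genes. IgG reads were few, from 2 to 61 per gene, which sets the width of the intervals.

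The Hox genes, 4 clusters of homeobox regulators that set position along the body axis, were marked as a group. Of 39 autosomal members 29 had 20 or more reads and all of these lay above IgG, with ratios from 1.95 to 3.84 and a median of 3.07. Since the minimum of 20 reads uses the same 2 libraries as the ratio, the reads of all 39 were also added up. They gave 9.46-fold (8.35 to 10.8), 4271 reads against 260. Of the 6 members with 40 or more reads in IgG E13.5, 6 lay above. Hoxb6 had levels of 66.2 CPM in H3K27me3 and 3.68 in IgG in the E11.5 pair, 69.5 and 8.58 in the E12.5 pair and 4.03 in IgG E13.5, a ratio of 3.84 in the E11.5 pair. Hoxa11, the lowest, stood at 28.4 and 6.63 in the E11.5 pair, 23.3 and 4.62 in the E12.5 pair and 2.10 in IgG E13.5, a ratio of 1.95. Even for this gene both H3K27me3 levels lay above all 3 IgG levels.

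Of the 10 Hox members under the minimum, Hoxa2 and Hoxc10 had 16 and 19 reads in H3K27me3 and 0 in IgG. A further 7, Hoxa4, Hoxa5, Hoxa6, Hoxc6, Hoxc8, Hoxc9 and Hoxd4, were listed at 0 in all 5 libraries, so their state was not measured. The RefSeq intervals of 4 of these 7 overlap another gene. Over all autosomal genes with a position, 35.1% of the 1035 that were at 0 in every library overlap another gene, against 15.3% of all genes. The deposited length of Hoxc5 was 49987 bases, against a RefSeq span of 3422, so its 335 reads may have come from a longer stretch of the cluster. Hoxd8 had 26 reads against 0 in IgG, which is 4.99-fold higher if the IgG library is set at a floor of 3 reads. That value rests on the chosen floor and is not a lower limit of the counting interval.

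The other homeobox genes were mostly marked too. Of 107 autosomal members 98 were tested, 89 lay above and 0 below, with a median of 2.75, and all members together gave 5.03-fold (4.82 to 5.24). With the IgG E13.5 filter 38 of 43 lay above. After Nkx3-2, Emx2, Pdx1 and Dlx3 came Lbx2, a ladybird homeobox gene, at 4.20. Among the lowest were Meox2, of the limb muscle and vessels, at 0.72 and Evx1, of spinal interneurons, at 0.48.

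Forkhead and GATA genes, regulators of endoderm, mesoderm and mesenchyme, gave 24 above and 0 below of 27 tested (31 autosomal), with a median of 2.58 and 5.17-fold over all members (4.69 to 5.71). After Foxf2 the highest were Foxd2 at 3.61, a gene of kidney and somite mesenchyme, Foxi3 at 3.58, of the ectodermal placodes, and Foxd4 at 3.56. Foxn1, the thymic epithelium factor, was lowest at 0.12. With the IgG E13.5 filter only 7 members were left, of which 4 lay above.

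Basic helix-loop-helix genes of nerve, muscle and mesoderm gave 24 above and 0 below of 28 tested (41 autosomal), with a median of 2.33 and 4.38-fold over all members (3.99 to 4.81). Myod1, the master gene of skeletal muscle, stood at 39.0 and 2.21 CPM in the E11.5 pair, 23.9 and 9.24 in the E12.5 pair and 5.26 in IgG E13.5, a ratio of 3.64. Olig2, of motor neurons and oligodendrocytes, had 3.15. Myog, which acts after Myod1 in muscle, had 13 and 7 reads and a ratio of 0.08. With the IgG E13.5 filter 6 of 9 lay above.

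Pax, Sox and T-box genes were mostly marked. Of 37 autosomal members 34 were tested, 28 lay above and 1 below, with a median of 2.25, and all members together gave 2.24-fold (2.16 to 2.32). With the IgG E13.5 filter 20 of 26 lay above. Tbx2 led at 3.56, followed by Sox14 at 3.55, T, the brachyury gene of early mesoderm, at 3.22, and Pax2, of kidney and eye, at 3.11 with 2055 and 136 reads. Pax6, the eye and forebrain gene, stood at 145 and 17.7 CPM in the E11.5 pair, 98.4 and 31.7 in the E12.5 pair and 25.2 in IgG E13.5, a ratio of 2.96. The other 6 tested members were of mixed length. Tbx19, of the pituitary, had 0.98, Tbx10 0.15 and Tbx4, of the hindlimb, -0.83. Sox5 and Sox6, long cartilage and neural genes, had -0.52 and -0.50. Sox5 alone held 1775 and 1463 reads, which lowers the ratio of the reads added up. Mga, the member below IgG at -1.39, encodes a partner of Max that is found in a Polycomb complex and in this list only through its T-box.

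Signalling ligands were more mixed. Of 63 Wnt, Fgf, Bmp and hedgehog genes 57 were tested, 37 lay above and 0 below, with a median of 2.01, 2.73-fold over all members (2.63 to 2.83) and 25 of 42 above with the IgG E13.5 filter. Wnt1, an organiser signal of the midbrain and hindbrain, stood at 76.8 and 3.68 CPM in the E11.5 pair, 50 and 11.2 in the E12.5 pair and 4.73 in IgG E13.5, a ratio of 4.05. Fgf8, a signal of limb, face and brain outgrowth, had 4.02, and Ihh, the hedgehog of growing cartilage, 3.33. Bmp7, a ligand of kidney and bone, had -0.74 with levels of 68.3 and 115, and Wnt2b had -0.89. Over these 6 developmental lists together, 231 of 273 tested genes were marked, 190 of them by at least 4-fold, and 1 lay below. Over all 15050 tested genes 17.2% were marked, 1102 reached 4-fold and 29.7% lay below. The lists had median lengths from 3.06 to 19.2 kb. Of all tested genes, 37.6% were marked at 0.6 to 10.4 kb and 18.9% at 10.4 to 19.8 kb.

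Of the families of neurons, clustered protocadherins, surface proteins that give neurons their identity, gave 23 above and 0 below of 24 tested, with a median of 2.16 and 6.11-fold over all members (5.38 to 6.97). With the IgG E13.5 filter only 3 members were left, of which 3 lay above, so most of the 23 had few reads in that control. Pcdhb16 stood at 37.8 and 2.21 CPM in the E11.5 pair, 40.2 and 7.92 in the E12.5 pair and 3.86 in IgG E13.5, a ratio of 3.59. The other 14 of 38 members were listed at 0 in all 5 libraries, and the RefSeq intervals of all 14 overlap another gene. Voltage-gated channel genes gave 21 above and 0 below of 55, with a median of 0.86. Kcng4, a potassium channel gene, led at 3.15, and Kcnh1 was lowest at -0.96. Glutamate, GABA and glycine receptor genes, most of them long, gave 9 above and 2 below of 45, with a median of 0.11 and 1.20-fold together (1.18 to 1.22). Gabbr1, a GABA-B receptor subunit, and Grin2c, an NMDA receptor subunit, had 2.74 and 2.63, while Gria4, an AMPA receptor subunit, had -0.97. A share of 9 of 45 is near the background of 17.2%.

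Regulators of the cells that surround PGCs in the gonad were mostly marked. Of 27 autosomal somatic gonad genes 23 were tested, 19 lay above and 0 below, with a median of 2.19, 3.97-fold over all members (3.69 to 4.27) and 11 of 15 above with the IgG E13.5 filter. Gata4, of the coelomic epithelium and genital ridge, stood at 589 and 103 CPM in the E11.5 pair, 520 and 103 in the E12.5 pair and 88.7 in IgG E13.5, a ratio of 2.50. Wt1, of gonad and kidney, stood at 216 and 47.9 in the E11.5 pair, 205 and 58.1 in the E12.5 pair and 48.0 in IgG E13.5, a ratio of 2.15. In both genes the H3K27me3 libraries lay above every IgG library. Nr5a1, the regulator of steroid-producing cells, had 2.50, Sox9, the testis-determining factor downstream of Sry, 2.78, and Foxl2, its ovarian counterpart in granulosa cells, 2.10. Dmrt1, which is used by germ cells and Sertoli cells alike, had -0.80, and Ptgds -0.69. Emx2, Gata4, Sox9 and Foxl2 are of the homeobox, GATA, Sox and forkhead families of the developmental lists above. The result of this list is thus not separate from theirs.

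The marker genes set for the cell types that a gonad sort can hold differed in the same way. The 11 PGC markers were at or below the IgG level: 6 were tested, 0 lay above and 4 below, with values of -0.60 for Prdm14, -0.80 for Nanog, -1.0 for Ddx4, -1.03 for Kit, -1.22 for Prdm1 and -1.29 for Nanos3. The other 5, Pou5f1, Dppa3, Tfap2c, Dnd1 and Dazl, had 6 to 9 reads in H3K27me3 and 5 to 10 in IgG. All 11 together gave 0.484-fold (0.421 to 0.558), with a summed level of 157 CPM in H3K27me3 and 324 in IgG. The 11 somatic gonad markers gave 10 above of 10 tested and 5.76-fold together (5.21 to 6.38), with summed levels of 1777 and 309, and Amh was untested with 6 and 8 reads. Emx2, Gata4, Sox9 and Foxl2, of the families of the developmental lists, are among these 11. Blood markers gave 4 above of 7, with Tal1 at 2.96 and Ptprc, the pan-leukocyte gene, at -0.03. Endothelial markers gave 1 above, Sox17 at 2.23, and 1 below, Pecam1 at -1.34, of 6. These are levels of a histone mark on DNA and not of RNA, so the purity of the sort was not tested. In a bulk sample, more mark per cell and more cells with the mark cannot be told apart.

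Genes of germ cell specification and pluripotency lay on the low side. Of 35 autosomal members 24 were tested, 4 lay above and 12 below, with a median of -0.94. The 50% below compares with 29.7% over all tested genes, and the 16.7% above is near the 17.2% of all. Prdm1, the repressor that founds the germ line, stood at 37.8 and 89.1 CPM in the E11.5 pair, 46.0 and 91.7 in the E12.5 pair and 90.4 in IgG E13.5. Kit, the receptor that PGCs need to migrate and survive, stood at 50.1 and 103, 44.8 and 95, and 82.4 in the same order. Each of these genes had both H3K27me3 libraries below every IgG library. Dppa2, a pluripotency factor, was lowest at -1.77 with 10 and 23 reads.

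The 4 marked members of that list were Tbx3 at 3.06, Nanos2, which acts in male germ cells, at 2.05, Esrrb, a naive pluripotency factor, at 1.18, and Kitl, the ligand of Kit that is made by somatic cells, at 1.01. Their reads raised the ratio of the whole list to 1.06-fold (0.993 to 1.12), so the list's median and its reads added up lie on different sides of 1. Nanos3 had a deposited length of 11487 bases against a RefSeq span of 2820, and its reads may include those of its surroundings.

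Meiosis genes, which female germ cells switch on after these stages, fell on both sides. Of 40 autosomal members 37 were tested, 8 lay above and 10 below, with a median of -0.56 and 0.925-fold together (0.879 to 0.974). The 8 were Stra8, the gatekeeper of meiotic entry, at 2.0, Rad21l, a meiotic cohesin, at 1.96, Prdm9, which places recombination sites, at 1.74, Mei1 at 1.57, Meioc, which stabilises the meiotic programme, at 1.39, Msh5 at 1.23, Syce3 at 1.05 and Rnf212 at 1.01. Stra8 stood at 127 and 30.9 CPM in the E11.5 pair, 83.9 and 28.4 in the E12.5 pair and 23.3 in IgG E13.5. Smc1b, the other meiotic cohesin gene named here, had -1.51, and Dmc1, the meiotic recombinase, -1.34. A share of 8 of 37 is near the background, and Sycp3 and Tex12 were at 0 in every library.

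Among genes of the piRNA pathway, which silences transposons in germ cells, 2 of 23 tested lay above and 6 below. These shares were 8.70% and 26.1%, against 17.2% and 29.7% over all tested genes, so the share below was near the background. Tdrd6, a tudor protein of the chromatoid body, had 2.85 with 152 and 11 reads, and Tex101 had 1.1. Tdrd12 was lowest at -1.50. Oocyte genes gave 6 above (31.6%) and 1 below of 19 tested, with a median of 0.62 and 1.15-fold over all members (1.04 to 1.27). Sohlh1, a factor of early follicles, had 2.60 and Zar1, a maternal effect gene, 2.54, on 33 and 72 H3K27me3 reads. Zp3, a coat protein of the egg, had 2.01, while Taf4b, a germ cell subunit of TFIID, had -1.80. With the IgG E13.5 filter 1 of 14 oocyte genes lay above, so the count rests on genes with few control reads.

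DNA methylation and demethylation genes differed widely. Of 18 tested 5 lay above and 4 below. These shares of a small list were 27.8% and 22.2%, against 17.2% and 29.7% over all tested genes. Tet3, a dioxygenase that oxidises 5-methylcytosine (chromosome 6, 83362373 to 83457208), stood at 1361 and 115 CPM in the E11.5 pair, 1328 and 152 in the E12.5 pair and 118 in IgG E13.5, a ratio of 3.56 or 11.8-fold in reads (10.1 to 14.0). Both H3K27me3 libraries lay above every IgG library. Dnmt3l, the cofactor of de novo methylation in germ cells, stood at 153 and 24.3, 161 and 31.0, and 20.2 in the same order, a ratio of 2.60. Dnmt3b, a de novo methyltransferase, had 1.48, and Zfp57, a zinc finger protein that protects methylation at imprinted regions, had 2.30. Dnmt1, the maintenance methyltransferase, Tet1 and Tet2 lay below IgG at -1.28, -1.1 and -1.3. Tet3 held 3208 of the 4972 reads of the list, so its added reads describe that gene.

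Of the genes that encode the Polycomb machinery itself, 14 of 31 lay below, 13 between and 4 above, with a median of -0.91. The 45.2% below compares with 29.7% over all tested genes. Their median length was 41.0 kb, and of all tested genes of 36.0 to 77.3 kb 41.3% lay below, with a median of -0.85. The list was thus near the genes of its length. In the E12.5 pair 13 lay below and 0 above. Among those above were Cbx8 at 3.07, a gene for a reader of the mark, Epop at 1.68, an accessory of Polycomb repressive complex 2, and Bmi1 at 1.31. Cbx8 had a ratio of 0.72 at E12.5. Of the core genes, Ezh2 had -1.55, Suz12 -1.28, Ezh1 -0.94 and Eed -0.91. Mtf2, an accessory subunit, was lowest at -1.68.

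Cell cycle inhibitors and D cyclins gave 5 above and 1 below of 8, or 62.5% above against 17.2% over all genes, with a median of 1.34. Against IgG E12.5 the median was 0.36, and in the E12.5 pair 3 of 7 lay above and 2 below, with a median of 0.04. Cdkn2a, the Ink4a/Arf tumour suppressor gene, stood at 123 and 23.6 CPM in the E11.5 pair, 113 and 21.1 in the E12.5 pair and 23.3 in IgG E13.5, a ratio of 2.34. Ccnd2 had 1.72 in the E11.5 pair and 1.49 in the later one, and Ccnd3 had -1.22 and -1.13. Cdkn2c, an inhibitor of Cdk4 and Cdk6, had 1.87 and -0.09.

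Genes used by every cell had few reads over background. Of 42 autosomal housekeeping genes 28 were tested, 18 lay below and 1 above, with a median of -1.15 and 0.580-fold over all members (0.529 to 0.636). The 64.3% below compares with 29.7% over all tested genes. Hsp90ab1, a chaperone, and Gpi1, a glycolytic enzyme, were lowest at -1.77, and Polr2a, the large subunit of RNA polymerase II, had -1.46. Hsp90ab1 stood at 4.24 and 16.9 CPM in the E11.5 pair, 4.58 and 11.2 in the E12.5 pair and 5.08 in IgG E13.5. Its IgG levels thus ran down to 5.08, close to both H3K27me3 levels. The member above was Reep5, a shaper of the endoplasmic reticulum, at 1.32.

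Proteasome genes gave 15 below (48.4%, against 29.7% over all tested genes) and 2 above of 31, with a median of -1.0. The 2 were Psmb9 at 3.05 and Psmb8 at 2.96, the interferon-inducible subunits that lie among antigen presentation genes on chromosome 17. Ribosomal protein genes gave 7 below (38.9%) and 1 above of 18 tested of 78, most being too short for 20 reads. The gene above, Rpl11 at 1.43, had a deposited length of 25164 bases against a RefSeq span of 4040, so its 248 reads may come largely from its surroundings.

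Among large families, Zfp zinc finger genes, many of them repressors of transposons, lay low, with 134 below and 21 above of 279 tested and a median of -0.99. Their shares were 48.0% below and 7.53% above, against 29.7% and 17.2% over all tested genes. Zfp932 was the lowest of all tested genes at -2.67, on 4 and 22 reads, and Zfp648 the highest of the family at 2.94. Keratin genes of epithelia gave 29 above and 0 below of 44, with a median of 1.40, 2.90-fold over all members (2.68 to 3.15) and 19 of 31 above with the IgG E13.5 filter. Krt18 and Krt8, the keratins of simple epithelia, had 3.39 and 2.90, and Krt14, of basal skin cells, 3.23. Solute carriers gave 52 above and 68 below of 326, and their 16.0% above is near the 17.2% of all genes. The highest was Slc17a7, a vesicular glutamate transporter, at 3.14. Cytochrome P450 genes gave 16 above and 10 below of 93, and 17.2% above is the share of all genes. Their 5 highest were Cyp26c1 at 3.14 and Cyp26a1 at 2.58, which break down retinoic acid, Cyp27b1 at 2.60 and Cyp24a1 at 2.46, which make and break down active vitamin D, and Cyp46a1, a cholesterol hydroxylase of the brain, at 2.57.

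Olfactory receptor genes lay near the middle, with 72 above and 16 below of 381 tested of 1085, a median of 0.26 and 1.17-fold over all members (1.135 to 1.203). Their 18.9% above is near the 17.2% of all tested genes. The median length of the family was 7.70 kb. Of all tested genes of 0.6 to 10.4 kb 37.6% were marked, with a median of 0.47. Against IgG E13.5 their median was -0.28 in place of 0.26, so the side of this family depended on the control. Vomeronasal receptors gave 13 above and 26 below of 163, or 7.98% and 16.0%, against 17.2% and 29.7% over all tested genes. Their median of -0.34 turned to 0.08 with TMM, 0.14 with size factors and 0.32 against IgG E12.5. Receptors of these families have near-identical copies, and the deposited lengths of several exceed the RefSeq span many times, so single members are uncertain.

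Small and unmeasured families complete the set of 31 lists. Defensins gave 3 above of 16 tested (18.8%, near the share of all genes), keratin-associated proteins 1 of 4, and the 8 replication-dependent histone genes in the files held 6 and 2 reads in all and were not tested. Blood genes gave 7 above and 1 below of 17, among them Itga2b, a platelet integrin, at 2.30 and Spi1, the myeloid master factor, at 1.35. Endothelial genes gave 6 above and 1 below of 19, led by Robo4 at 2.41. The shares above were 41.2% for blood and 31.6% for endothelial genes, against 17.2% over all tested genes. In all, 543 of the 2591 marked genes belonged to a list and 2048 to none.

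**Figure D2:**
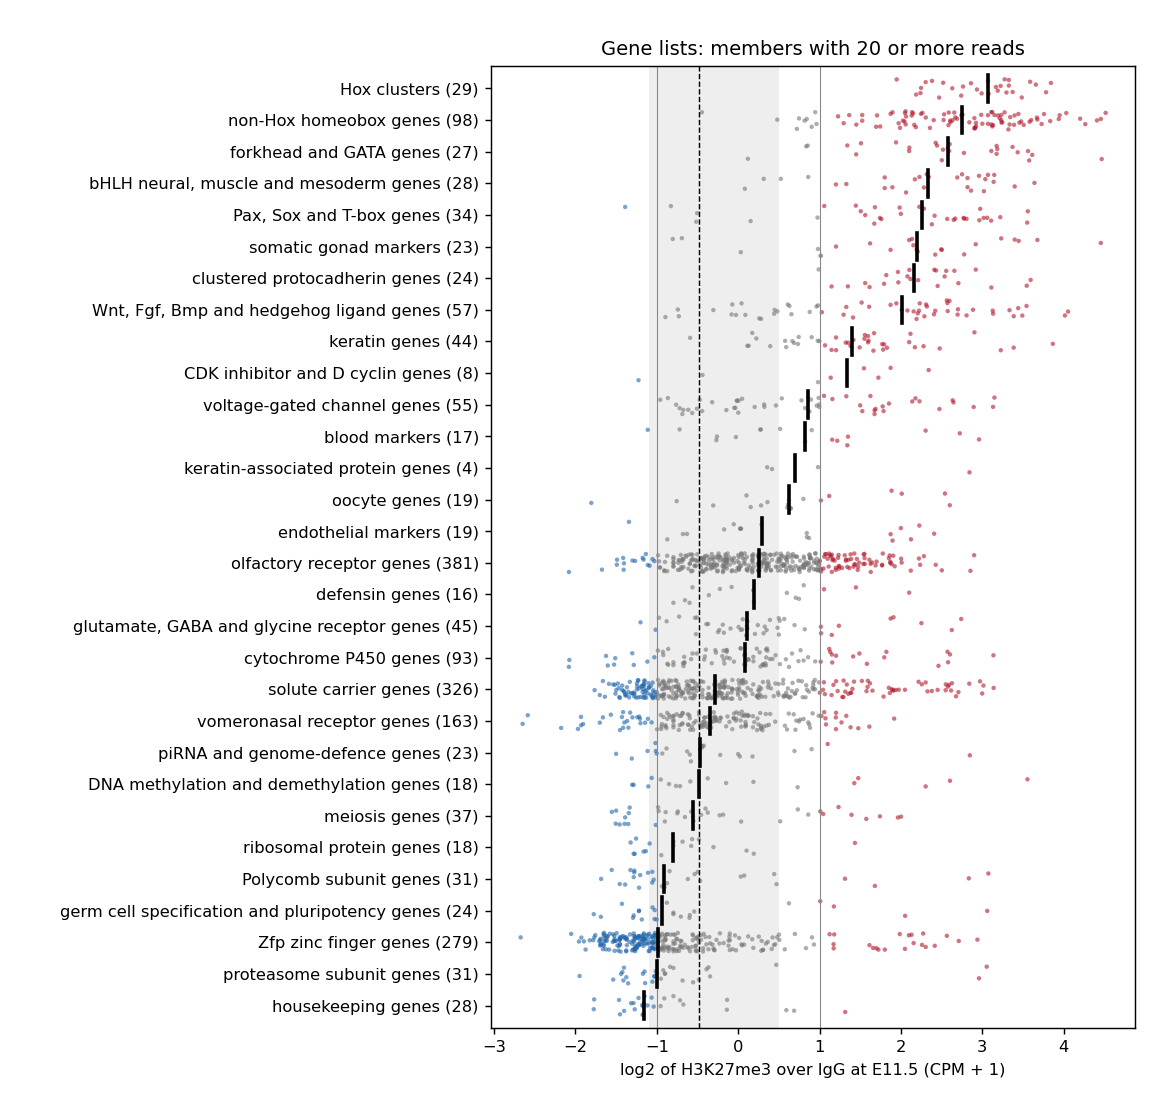
Each point is 1 gene with 20 or more reads in the E11.5 pair, placed by its log2 ratio of H3K27me3 over IgG (x axis) in the row of its list, with the number of tested members in brackets, a bar at the list's median, grey lines at 2-fold, a dashed line and a grey band at the median and interquartile range of all 15050 genes. Hox genes sit highest with a median of 3.07 and housekeeping genes lowest with -1.15.

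Among genes with 100 or more reads, those with the lowest ratios were long. Wac, an adaptor of histone H2B ubiquitination (chromosome 18, 7868825 to 7929028), stood at 11.9 and 55.2 CPM in the E11.5 pair, 13.1 and 23.8 in the E12.5 pair and 45.7 in IgG E13.5. Its ratio was -2.13, or 0.215-fold in reads (0.134 to 0.336). Sacm1l, a lipid phosphatase of the endoplasmic reticulum, had -2.04, Vrk2, a serine kinase, -2.0, Sos1, which activates Ras, also -2.0, Stt3b, a catalytic subunit of N-glycosylation, -1.96, and Map2k4, a kinase of the JNK pathway, -1.87. In Vrk2 the H3K27me3 levels of the 2 stages were 31.8 and 53.6, and the 3 IgG levels 130, 87.8 and 137. The 25 lowest of these genes were 38.1 to 175 kb long with a median of 69.4 kb, 0 of them belonged to a developmental list, and their IgG reads ran from 74 to 192. The minimum of 100 reads favours long genes: the 25 lowest of all 15050 genes had a median length of 18.8 kb, and 17 of them were shorter than the median gene.

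The share of marked genes went down with gene length. In the shortest of 5 length classes of equal size (0.6 to 10.4 kb) 37.6% were marked and 10% lay below IgG. The share then went down through 18.9%, 13.2% and 9.83% to 6.54% in the longest class (77.4 kb and more). The share below IgG was 24.3%, 35.5%, 41.3% and 37.3% in the same classes. A short gene can reach 20 reads through a high level in either library, so the first class is read with the filter on IgG E13.5 reads beside it. With that filter 21.5% of the 1802 genes left in the shortest class were marked and 16.8% lay below, and the shares marked in the other classes were 17.4%, 12.9%, 9.69% and 6.51%. The order of the classes was thus the same, with a smaller difference at the short end. The median length was 12166 bases for marked genes and 38994 for genes below. A gene's count adds up all reads over its body, so in a long gene reads from outside a marked start enter the ratio too. The counts do not tell a start from the rest of the gene, so the part of such reads in these shares was not tested. The median number of reads per gene also rose with length, from 37 in the shortest class to 472 in the longest, and its part in these shares was not tested.

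**Figure D3:**
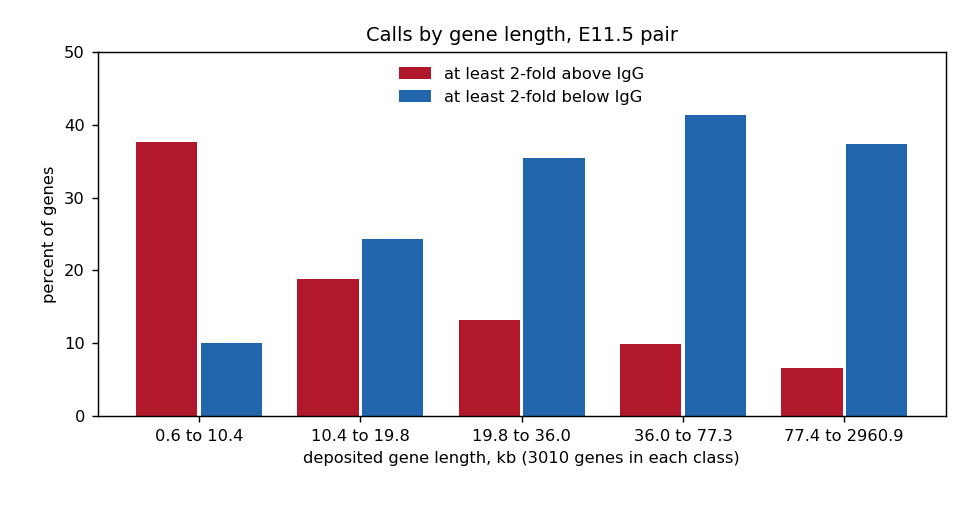
Bars give the percent of genes at least 2-fold above IgG (red) and at least 2-fold below (blue) in the E11.5 pair for 5 classes of deposited gene length in kb (x axis), with 3010 genes in each. The red bars go down from 37.6% to 6.54% as length grows, and the blue bars go up from 10% to a highest value of 41.3% in the fourth class. With the filter on IgG E13.5 reads, which is not drawn, the first red bar would stand at 21.5%.

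By chromosome the share of marked genes ran from 11.7% on chromosome 16 and 13.3% on chromosome 12 to 21.8% on chromosome 11 and 23.2% on chromosome 15, against 17.2% over all. Marked genes also lay next to each other. In the order of GRCm38.p6, 37.1% of the tested genes that follow a marked gene were marked, and 200 runs of 3 or more marked neighbours held 832 genes (32.2% of the marked genes with a position). Over all tested genes that share was 17.2%. Of the genes that follow a gene below IgG, 38.8% were also below, against 29.7% over all. The longest of these had 12 genes, 1 from Pik3r3 to Zswim5 on chromosome 4 and another from Crem to Epc1 on chromosome 18.

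The longest marked run had 16 genes in 357 kb (chromosome 17, 36869496 to 37226141), from Trim10 to Olfr96. It held Trim genes, H2-M5, Zfp57, Gabbr1, Ubd and a group of olfactory receptors, and its ratios ran from 1.15 to 3.49. The second was the protocadherin beta cluster with Pcdhga3, 14 genes on chromosome 18, and the third the Hoxb cluster with its neighbours Ttll6 and Skap1, 12 genes on chromosome 11 with ratios from 1.39 to 3.84. A run of 11 genes on chromosome 7 (45526330 to 45704687) held Izumo1, Fgf21, a metabolic hormone, and Fut1, Fut2 and Sec1, which are fucosyltransferase genes. Another of 11 genes on chromosome 17 (34038919 to 34269418) held the class II antigen presentation genes H2-Oa, H2-DMa, H2-DMb1, H2-DMb2, H2-Ob and H2-Ab1 with Tap1, Tap2, Psmb8 and Psmb9. Its genes had 2095 reads in H3K27me3 and 223 in IgG. In the E12.5 pair 16, 13, 12, 9 and 11 genes of these 5 runs were again at least 2-fold above IgG. Neighbours can share the reads of overlapping bodies, and 1 gene in the first run and 1 in the third overlap the gene before them.

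**Figure D4:**
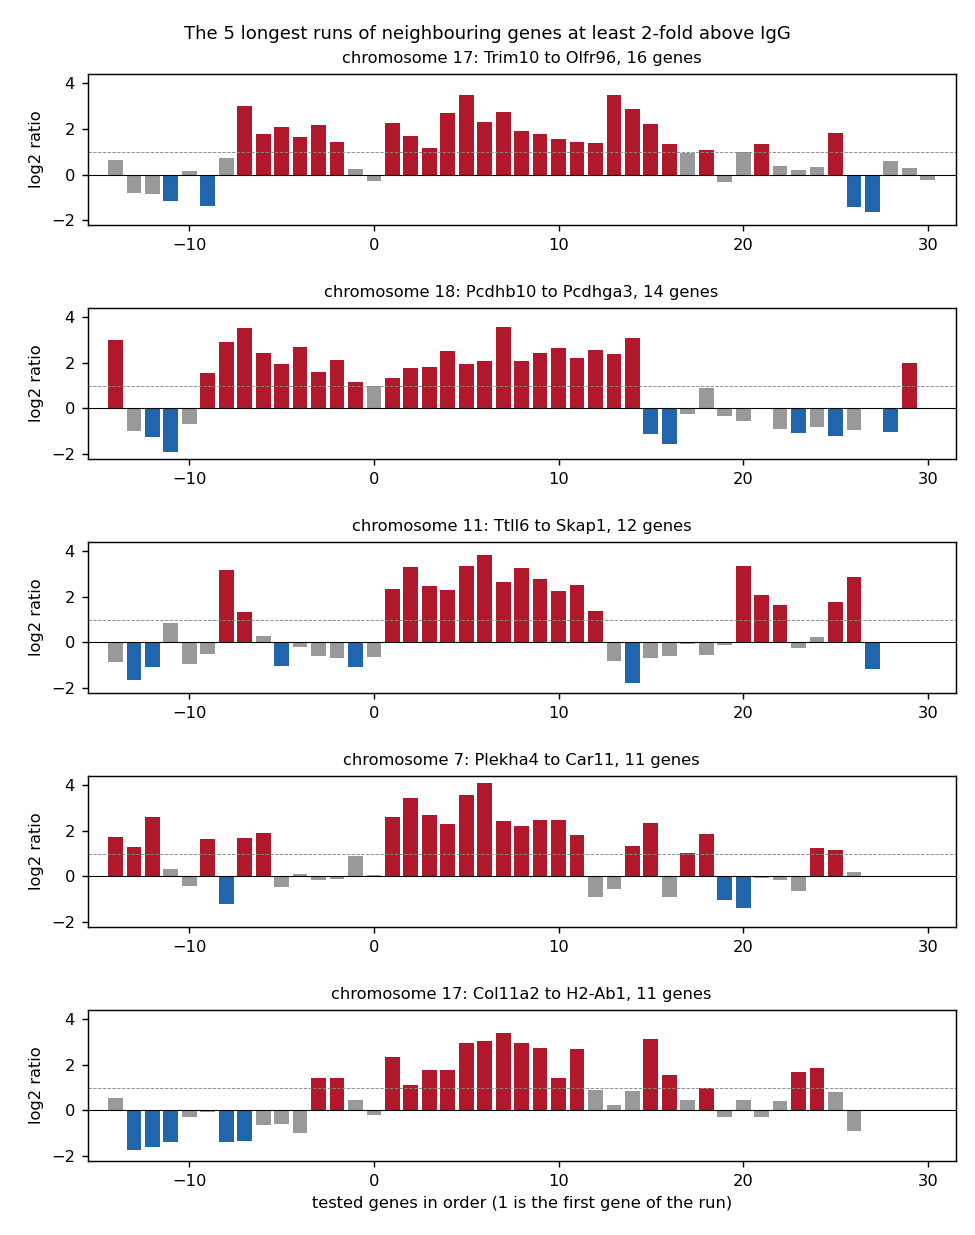
Bars give the log2 ratio of H3K27me3 over IgG at E11.5 (y axis) of tested genes in chromosomal order (x axis, where 1 is the first gene of the run) around the 5 longest marked runs, red for genes at least 2-fold above IgG, blue for genes at least 2-fold below and grey for the rest, with a dashed line at 2-fold. The runs of 16, 14, 12, 11 and 11 red bars stand between stretches with grey and blue bars.

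The E12.5 pair shares no library with the E11.5 pair, and its IgG came from females, as its H3K27me3 did. There 2511 of 16526 tested genes (15.2%) lay at least 2-fold above IgG and 4881 (29.5%) below. Over the 15025 genes tested in both pairs, 1781 were marked in both, which is 68.9% of the 2585 marked at E11.5 and 77.2% of the 2307 marked at E12.5. Genes below IgG were shared at 59.2% of 4459 and 59.1% of 4460. Only 3 genes went from above IgG at E11.5 to below at E12.5, and 5 the other way. Spearman's correlation of the ratios across genes was 0.774, a description over genes that share their libraries. The genes marked at E11.5 had a median ratio of 1.84 there and 1.36 at E12.5, and they were chosen on the first of these values. All 25 of the highest genes lay at least 2-fold above IgG at E12.5, with ratios from 1.46 to 3.45, and 12 of the 25 lowest lay at least 2-fold below.

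The 3 controls differed from each other at the marked genes. Their median log2 ratio of IgG E12.5 over IgG E13.5, neither of which was used to call them, was 0.50, against 0.13 over all 15050 tested genes. IgG E11.5 over IgG E12.5 gave -0.34, against -0.06 over all, and IgG E11.5 over IgG E13.5 gave 0.13, against 0.05. These last values are not independent of the calls, since a low IgG E11.5 level raises the ratio that calls a gene marked. The E11.5 H3K27me3 levels of the marked genes had a median ratio of 1.56 over IgG E12.5 and of 2.01 over IgG E13.5.

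**Figure D5:**
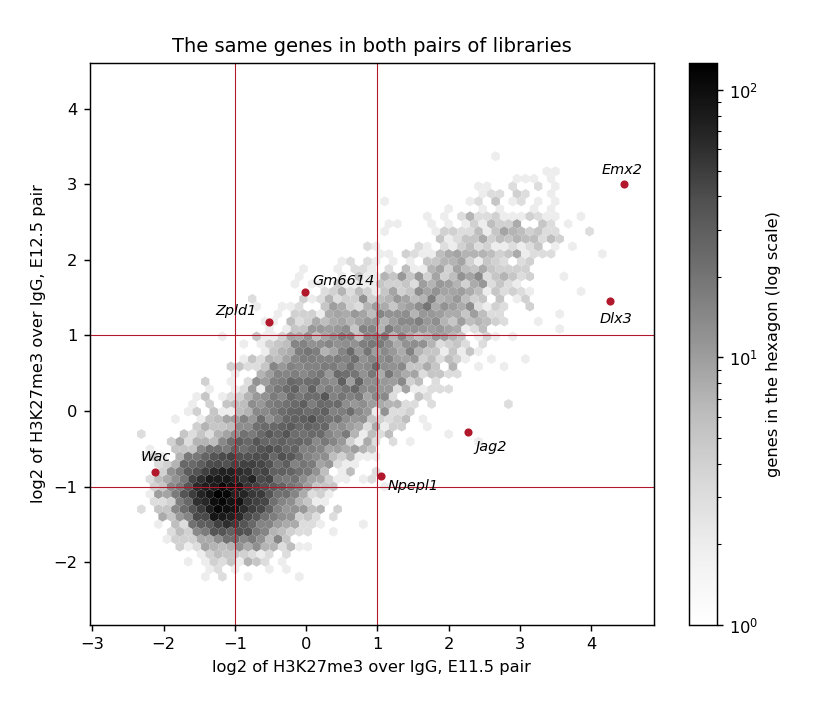
Genes tested in both pairs of libraries are placed by their log2 ratio of H3K27me3 over IgG in the E11.5 pair (x axis) and the E12.5 pair (y axis), shaded by the number of genes per hexagon on a log scale, with lines at 2-fold and named genes in red. Most genes follow the diagonal, with Emx2 high in both pairs, while Jag2 and Npepl1 lie above IgG at E11.5 only and Zpld1 and Gm6614 at E12.5 only.

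At most marked genes both alleles of the hybrid genome lay above IgG. With each allele scaled to its own autosomal reads, 11432 genes had 20 or more reads on each allele, of which 2230 (19.5%) lay above IgG on the first allele and 2208 (19.3%) on the second, and 3446 (30.1%) and 3423 (29.9%) lay below. Of the 2186 among them that were marked over both alleles, 1763 (80.6%) lay at least 2-fold above on each allele, 202 on the first only and 221 on the second only. Genes below IgG were below on each allele in 65.6% of 3455 cases. Both calls were made on the sum of these same allele counts, so the alleles could not test them. The number of genes past 2-fold on neither allele was 0 for both calls. Tet3 had 3.61 and 3.5, Gata4 2.56 and 2.44 and Stra8 2.09 and 1.91. Which strain gave which allele is not stated, and alleles of 1 library are not replicates.

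The 423 genes above IgG on 1 allele only are 19.4% of the 2186, and the ones named here were picked with their values known. Gprc5a, a G protein-coupled receptor gene, had 2.2 on the first allele and -0.63 on the second, with 130 and 27 reads in H3K27me3 and 16 and 24 in IgG. Pxn, the focal adhesion protein paxillin, had 1.83 and -0.83, with 366 and 57 reads in H3K27me3 and 60 and 58 in IgG. In the other direction Ctnnal1, a catenin-like gene, had -1.09 and 1.82, with 33 and 309 reads in H3K27me3 and 42 and 49 in IgG. Adcy6, an adenylyl cyclase, had 0.08 and 2.94, with 45 and 239 reads in H3K27me3 and 25 and 17 in IgG. In Pxn and Ctnnal1 the IgG reads were divided almost evenly, while H3K27me3 reads were not. Among all 2186 genes, 13 had ratios of opposite sign on the alleles.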

How the data were processed

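CUT&RUN reads of sorted mouse PGCs were used from 5 libraries, 1 per group, and samples were grouped by the labels. The tables have no header and the labels do not describe their columns, so their contents were read from the values. Each deposited table gives, per gene, the chromosome, a length, raw counts for the first and the second allele and a fraction, the share of the second allele, as the authors made them. The deposited counts were not normalised, and the deposited fraction equals the second count over the sum and was not used further. The submitters' processing notes name the build mm10 and, among other tools, Bowtie2 2.4.2 and featureCounts, with SAMtools 1.11, Trim Galore 0.6.6, GATK, MACS2 2.2.7.1, FastQC 0.11.9 and deepTools 3.5.1. How each was used, how duplicates were handled, how reads were given to an allele and how the sort was gated is not given in the sources used here. Sequence reads over no strain variant carry no allele, so the counts are a part of each library.

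Counts of both alleles were scaled to 1000000 reads of chromosomes 1 to 19 (CPM), leaving out 5 genes listed at a pair of positions, and log2 ratios were taken with a pseudocount of 1 CPM over genes with 20 or more reads. A gene was called at 2-fold. Read ratios carry exact conditional Clopper-Pearson 95% intervals. The ratio was tested on simulated counts. With 1 library a side no test was run. TMM factors came from edgeR 4.0.16 and size factors from DESeq2 1.42.0 (R 4.3.3), and the rest used Python 3.11.15 with scipy 1.17.1. Positions came from RefSeq GRCm38.p6 for 20204 autosomal genes, 15022 of them tested. The deposited length was within 10% of the RefSeq span for 15578 genes and over 10% longer for 3135.

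Genes and lists were chosen with earlier results of these data known. Named genes are members of lists of up to 40 genes, the 5 highest and 3 lowest of longer lists, the 25 highest and lowest over 100 reads, genes of the 5 longest runs, the 5 largest differences each way between the pairs, and cell type markers. Other names were chosen after their values were seen. Alternatives were other pseudocounts, minima, scalings, IgG controls, single alleles, equal depth and the counting interval; a filter on 40 or more IgG E13.5 reads and one on lengths were added after seeing the data. Values of some genes that entered the counts are not reported here.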

Additional observations from a re-analysis of the deposited data

Results flagged for a closer look

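Some genes lay at least 2-fold above IgG in the pair of libraries of one stage and at or below the IgG level in the other. There were 29 such genes at E11.5 and 19 at E12.5 with 100 or more reads in each pair, and the 5 largest differences each way are given. The differences were not tested, since each pair has 1 library a side.

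Marked at E11.5 were Jag2, a Notch ligand, with a log2 ratio of 2.27 at E11.5 and -0.28 at E12.5, Cdc42bpg, a kinase gene, with 2.08 and -0.23, and Arhgef19, a guanine nucleotide exchange factor gene, with 1.91 and -0.0176. Fam181a had 1.63 and -0.22, and Npepl1, an aminopeptidase-like gene, had 1.05 and -0.85. In all 5 the H3K27me3 level was lower and the IgG level higher at E12.5. For Jag2 the H3K27me3 levels were 85.7 and 37.3 CPM and the IgG levels 16.9 at E11.5, 45.5 at E12.5 and 18.2 at E13.5. IgG E13.5 thus lay near IgG E11.5, and the E12.5 control stood apart from both.

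Marked at E12.5 were Gm6614 with -0.0203 at E11.5 and 1.57 at E12.5, Slco1a1, an organic anion transporter, with -0.0824 and 1.47, 1700003H04Rik with -0.39 and 1.35, Adam7, an epididymal membrane protein, with -0.32 and 1.30, and Zpld1, a zona pellucida domain gene, with -0.52 and 1.17. In all 5 the IgG level at E12.5 was the lowest of the 3 controls. For Zpld1 the IgG levels were 68.5, 25.7 and 70.1 CPM at E11.5, E12.5 and E13.5, and the H3K27me3 levels were 47.5 and 59.4.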

How the results depend on the processing

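The count of genes at least 2-fold above IgG stayed within 1.5 times of 2591 under every alternative, from 1788 to 3770. The count below IgG (4466) did so too, from 3141 to 5261, except under the scalings, where it was 1450 with TMM (9.63%) and 1143 with DESeq2 size factors (7.59%). Both move the ratio of every gene up by construction. Signs were compared for 88 genes: the 25 highest and lowest, the 10 that differ between the pairs and the tested cell type markers. Of the 74 past 2-fold, 0 changed sign under any alternative that kept them. The 25 highest and 25 lowest among them were chosen for extreme values of this same ratio, and a pseudocount cannot turn a sign. The 0 thus says little about other genes. Of the other 14, 10 changed sign under at least 1, among them Ptprc, Gm6614, Slco1a1, Adam7, 1700003H04Rik, Cdh5 and Klf1 with TMM and size factors, and Zpld1 and Erg against IgG E12.5. List medians that changed sign were those of vomeronasal receptors, solute carriers and the endothelial markers with TMM and size factors, piRNA and DNA methylation genes with size factors, vomeronasal receptors against IgG E12.5, and olfactory receptors and the endothelial markers against IgG E13.5. No paired analysis was possible because only 1 library per group had a file, and for the same reason no replicate could be left out. Depth limits the short genes: 116 marked genes had fewer than 3 IgG reads, and genes under 20 reads were not called.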
